A study of Oryza sativa Japonica Group with 6 samples.

Results

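The wild-type arrays hold the leaf blade transcriptome of unmodified rice seedlings, and they were chosen by their label alone: 3 of the 6 arrays of the series are titled wild type. Each array carried RNA of the blade of the fourth leaf of Oryza sativa cultivar Nipponbare, a japonica reference cultivar, sampled when the plants had 4 leaves. The plants carried no transgene, received no treatment and grew from seed at 25 °C in a growth chamber, and each replicate pooled at least 3 plants. The study set this group against a line overexpressing linalool synthase, an enzyme that makes the monoterpene alcohol linalool, and that line is not described here. The hour and day length at harvest are not given in the labels, and a blade holds mesophyll, bundle sheath, veins and epidermis in one extract.

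The blade of a rice leaf is the site of C3 photosynthesis. Pigment-binding antenna proteins pass light to photosystems II and I in the thylakoid membrane, electron transport between them yields ATP and reducing power, and Rubisco and the Calvin cycle use both to fix carbon dioxide. Nuclear genes encode most antenna proteins, the small subunit of Rubisco and the Calvin cycle enzymes, whereas genes of seed storage, anther development or root uptake are known chiefly from other organs.

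Each level below is the log2 of the processed spot signal minus that of the 75th percentile of the array, so that 0 is the signal at the 75th percentile of the array. The 3 values of a gene are given in the order of replicates 1, 2 and 3, which is an order of names and not of time or dose. A gene counted as detected where a probe was well above background on all 3 arrays, in the sense of the scanner software's flag, and as silent where no probe was so on any array. Silent therefore means below the reach of these probes and not absent, and under the software's looser flag (positive and significant against background) 2982 loci rather than 7386 were silent on all 3. A locus was represented by its probe of highest mean. Ranks order probe signals from 1 (brightest) to 28848 and not amounts of mRNA, since probes bind with different strength. The 3 probes for CAB2R (Os01g0600900), a gene of the major light-harvesting protein Lhcb1, had means between 6.68 and -0.31 on the same RNA. In each of the 3 probes replicate 1 was highest and replicate 3 lowest.

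The arrays measured 28848 loci, of which 19600 (67.9%) were detected on all 3 arrays, 7386 (25.6%) were silent on all 3 and 1862 (6.45%) were detected on 1 or 2. The shares of spots well above background were 71.4%, 72.1% and 72.3%, no spot was saturated, and the span from the dimmest detected probe to the brightest locus was 15.4, 15.5 and 15.4 log2 units. Detected loci had a median level of -1.09 and silent loci of -7.69. The 10 brightest loci held 6.18% of the summed signal of all loci and the 100 brightest 27.0%. Levels correlated between arrays with r of 0.973 to 0.992 across detected loci, which are not independent replicates. All 3 arrays lay on 1 slide and were scanned on 1 day. With 1 group there is no contrast to test, so every value here is a description, and 3 pools limit its precision.

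**Figure D1:**
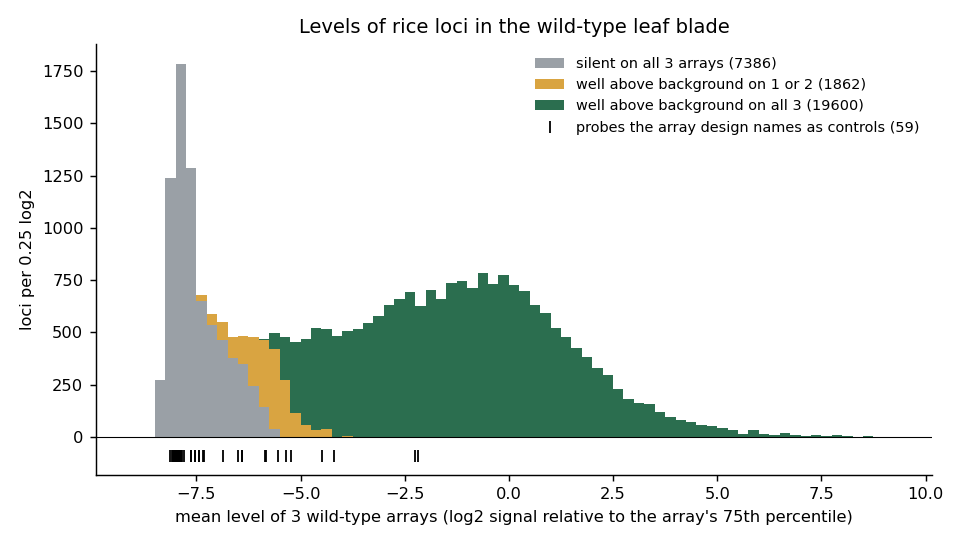
Histogram of the mean level of each locus over the 3 wild-type arrays (x axis, log2 units from the array's 75th percentile) against the number of loci per bin of 0.25 (y axis), stacked by detection. Silent loci form the narrow peak with a median of -7.69, detected loci spread around a median of -1.09, and black ticks under the axis mark 59 probes that the array design names as controls.

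Genes of photosynthesis held the top of the signal range. The 4 lists for photosystem II antenna, photosystem I, photosystem II core with electron transport, and Rubisco with the Calvin cycle have 48 members on the array. Of these, 47 were detected against 67.9% of all loci, 1 was silent and 41 were among the 500 brightest loci. They made up 4 of the 10, 21 of the 50 and 33 of the 100 brightest loci. Their median place among all loci was the 99.8th percentile. The lists were chosen with earlier results of these data known, so these ranks are a description and no check of the tissue label. In 3 of the lists 1 member, described below, stood far under its list.

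Rubisco activase (Os11g0707000), the chaperone that frees Rubisco of bound sugar phosphates, had levels of 8.80, 8.56 and 8.50 and rank 3. Its mean was 8.62 ± 0.16 (mean ± SD, n = 3, as for every such pair below), and 11 of 11 probes for the gene were detected. The 5 genes of the Rubisco small subunit differed widely. RBCS2 (Os12g0274700) had levels of 8.37, 8.05 and 7.95 and rank 4, and RBCS3 (Os12g0291100) 8.22, 8.03 and 8.05 and rank 6. RBCS4 (Os12g0292400) followed at 6.37 ± 0.20, RBCS5 (Os12g0291400) at 3.77 ± 0.23. These 4 genes lie together on chromosome 12 and have similar coding sequences, so that how much of each signal comes from a neighbour was not tested. RBCS1 (Os02g0152400), on chromosome 2, was silent in all 3 pools at -7.65, -7.10 and -7.87, with 1 probe.

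Among the carbon-fixing enzymes, plastid aldolase (FBA, Os11g0171300), which joins triose phosphates, was the brightest after activase, RBCS2 and RBCS3, at 8.18, 7.88 and 7.94 and rank 8. Phosphoribulokinase (Os02g0698000), which makes the substrate of Rubisco, was at 6.31 ± 0.29, and sedoheptulose bisphosphatase (Os04g0234600), of the regenerating arm, at 6.18 ± 0.12. The lowest detected member was plastid fructose bisphosphatase (Os03g0267300) at 3.05 ± 0.19 and rank 994. The member with the largest spread was carbonic anhydrase (Os01g0639900), which interconverts carbon dioxide and bicarbonate, at 6.62, 5.86 and 5.66. Its replicate 1 lay above the other two.

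Among the antenna genes of photosystem II, CAB1R (Os09g0346500), a gene of Lhcb1, had the highest level, 7.66, 7.76 and 7.81, rank 16. Lhcb2 (Os03g0592500) had 7.47, 7.35 and 7.19, Lhcb3 (Os07g0562700) 6.65, 6.53 and 6.61 and CAB2R 7.44, 6.61 and 6.01. CAB2R had the largest spread of the list, with replicate 1 2.70-fold above replicate 3, while CAB1R, also for Lhcb1, spanned 1.11-fold and had its lowest value in replicate 1, in 6 of 6 probes. The minor antenna proteins, which link the trimers to the core, were bright for CP26 (Lhcb5, Os11g0242800) at 6.73, 6.66 and 6.63 and CP29 (Lhcb4, Os07g0558400) at 6.20, 5.69 and 5.38. They were dimmer for CP24 (Lhcb6, Os04g0457000) at 3.77, 3.30 and 2.95. PsbS1 (Os01g0869800), the sensor that sets non-photochemical quenching, was at 5.13, 4.97 and 5.34. The other Lhcb1 locus, Os01g0720500, stood apart at -1.39, -1.41 and -1.80, rank 11074, and its 6 probes had means from -1.53 to -1.62. Its low signal was therefore shared by every probe for it.

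All 13 genes of photosystem I were within the 119 brightest loci. PsaO (Os04g0414700) was highest at 8.14, 7.76 and 7.51, PsaD (Os08g0560900), which docks ferredoxin, was at 8.07, 7.68 and 7.50, and the antenna gene Lhca4 (Os08g0435900) at 7.84, 7.57 and 7.38. PsaF (Os03g0778100), which binds plastocyanin, was lowest at 6.21, 5.72 and 5.50, and PsaH (Os05g0560000) spread most, at 6.38, 5.82 and 5.29. In all 13 genes replicate 1 was highest and replicate 3 lowest, and after quantile normalization each of these held for 11 of the 13. Of the photosystem II core and electron carriers, plastocyanin (Os06g0101600) had 7.45 ± 0.20, the oxygen-evolving protein PsbO (Os01g0501800) 7.41 ± 0.47 and ferredoxin 1 (Os08g0104600) 7.15 ± 0.12. The PsbR locus Os07g0147500, for a small extrinsic protein of photosystem II, was the low outlier of its list, with levels of 1.24, -0.84 and -2.04 that spanned 9.71-fold. A second PsbR locus, Os08g0200300, was added after its values were seen and had 8.29, 8.07 and 7.97, rank 5.

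Photorespiration salvages the product of Rubisco's reaction with oxygen. All 10 genes were detected, with a median at the 99.5th percentile. Glycolate oxidase GLO1 (Os03g0786100) was highest at 6.60 ± 0.25 and phosphoglycolate phosphatase (PGLP1, Os04g0490800), the first enzyme of the route, lowest at 3.43 ± 0.11. Of the listed genes of chlorophyll synthesis 12 of 12 were detected, with a median at the 93.5th percentile. CRD1 (Os01g0279100), a subunit of the cyclase, had 4.95 ± 0.17 and the magnesium chelatase subunit CHLH (Os03g0323200) 3.65 ± 0.21. PORA (Os04g0678700) and PORB (Os10g0496900), the light-driven reductases of protochlorophyllide, were the lowest members at -0.76, -1.43 and -1.81 and -0.93, -0.52 and -0.46. Of 7 genes of chlorophyll breakdown and senescence 6 were detected. The hydrolase NYC3 (Os06g0354700) was at 2.81 ± 0.11, the senescence factor NAP (Os03g0327800) at -2.40 ± 0.22, and NOL (Os03g0654600), the partner of the chlorophyll b reductase NYC1, was silent.

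The brightest locus of the blade was Os01g0200700, a metallothionein that binds metal ions through cysteine, at 8.76, 8.63 and 8.49. THI1 (Os07g0529600), which makes the thiazole part of vitamin B1, held rank 9 at 8.16, 7.93 and 7.80. Both were named after their values were seen. The array files do not pair the other top loci with names. The highest of these were Os04g0473150 at 8.79, 8.57 and 8.51 and Os01g0881600 at 8.25, 8.06 and 7.96.

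**Figure D2:**
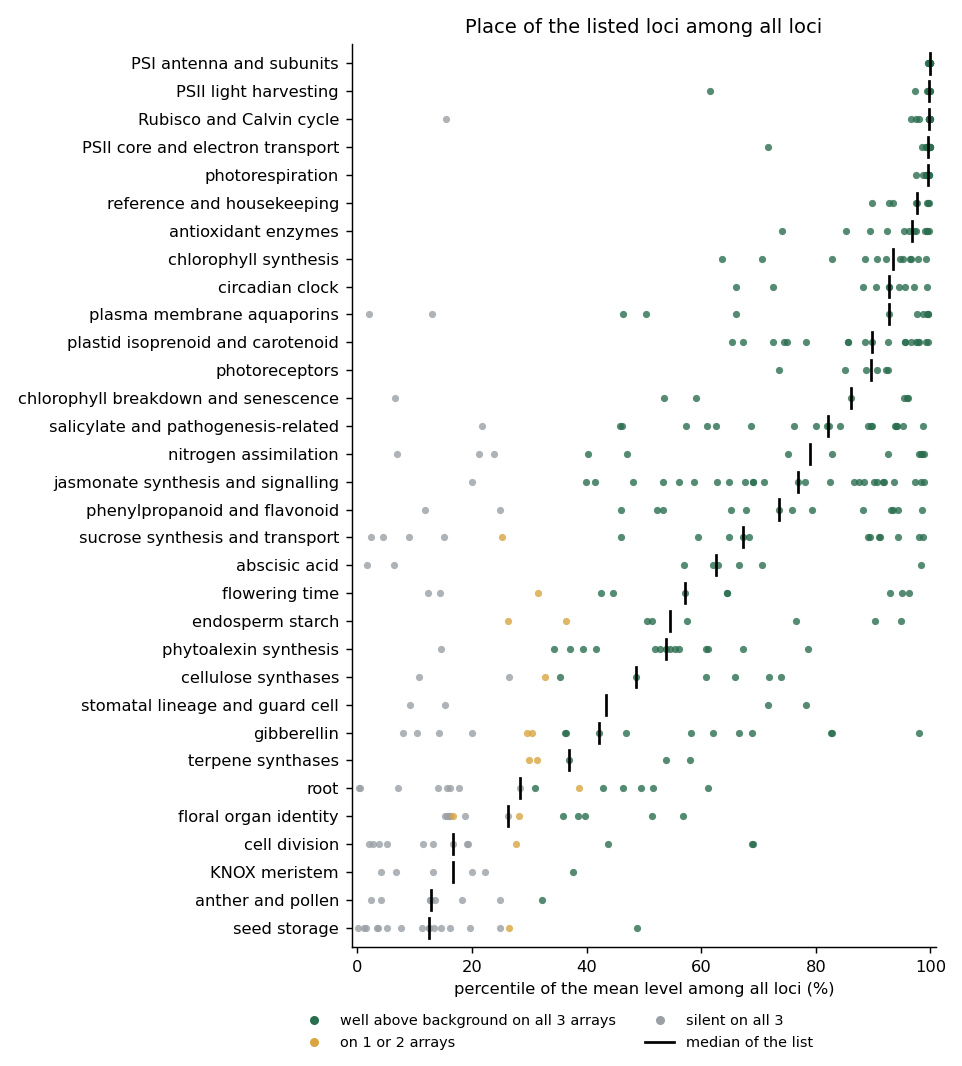
Percentile of the mean level among all loci (x axis) for the 384 listed loci on the array, 1 row per gene list (y axis, ordered by the list median, black bar), with colour for detection on the 3 wild-type arrays. The photosynthesis lists sit at the right edge apart from 3 members, and seed storage, anther, meristem and cell division genes sit at the left.

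Genes of nitrogen and sugar metabolism were split by isoform. Nitrate reductase NIA1 (Os08g0468100) was at 4.58 ± 0.49 and nitrite reductase (NIR, Os01g0357100), the next enzyme, at 4.88, 3.88 and 3.41. The plastid glutamine synthetase GS2 (Os04g0659100) was at 5.03 ± 0.26, the cytosolic GS1;1 (Os02g0735200) at 3.81 ± 0.44, and GS1;3 (Os03g0712800) was silent. NADH-GOGAT2 (Os05g0555600) spread most of the list, at 1.55, 0.39 and -0.32. The lowest detected member was the nitrate transporter NRT2.3 (Os01g0704100) at -4.06 ± 0.13, and the transporters AMT1;2 and NRT2.1 were silent. In sucrose export, cytosolic fructose bisphosphatase (Os01g0866400) was highest at 4.39 ± 0.19. The phloem loader SUT1 (Os03g0170900) had 0.71, 1.57 and 1.92, and SUT3, SUT5, SUS3 and SWEET11 were the 4 silent members of 17. Sucrose synthase SUS1 (Os03g0401300) was lowest among the detected at -3.26 ± 0.37.

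All 10 clock genes were detected, against 67.9% of all loci, and none spanned 2-fold between pools, against 8.53% of detected loci. Their median SD was 0.23, above the 0.17 of all detected loci. LHY (Os08g0157600), the morning MYB factor, had 5.32, 5.11 and 5.18, and GI (Os01g0182600), of the evening in other plants such as Arabidopsis, 3.35, 3.21 and 3.33. PRR1 (Os02g0618200), the rice counterpart of TOC1, had -0.63, -0.47 and -0.28. The other pseudo-response regulators had 2.09, 2.37 and 2.62 (PRR37, Os07g0695100), 1.62, 2.09 and 2.23 (PRR73, Os03g0284100), 0.97, 1.20 and 1.49 (PRR59, Os11g0157600) and 1.63, 2.04 and 2.29 (PRR95, Os09g0532400). All 5 of these PRR genes were lowest in replicate 1. PCL1 (Os01g0971800) had 2.93, 2.59 and 2.49, ELF3-1 (Os06g0142600) 1.77, 1.47 and 1.51 and ELF3-2 (Os01g0566100) -0.86, -1.08 and -1.33. Those 3, with LHY and GI, were highest in replicate 1, although after normexp correction 4 of the 10 clock genes were highest there rather than 5. The widest was PRR95, at 1.58-fold. Of the photoreceptors, all 6 detected with a median SD of 0.13, cryptochrome CRY2 (Os02g0625000) had 1.61, 1.62 and 1.61 and phytochrome A (Os03g0719800) was lowest at -0.36 ± 0.10.

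Flowering genes of the leaf were divided. The florigen Hd3a (Os06g0157700), the mobile signal that starts flowering, was silent at -7.66, -7.67 and -7.81, and so was its activator Ehd1 (Os10g0463400). MADS50 (Os03g0122600), an activator of flowering, was highest at 2.92 ± 0.11, and MADS14 (Os03g0752800) lowest of the detected at -3.74 ± 0.05. MADS18 (Os07g0605200), of the same clade as MADS14, had -2.43, -1.12 and -0.17 and spanned 4.81-fold. Replicate 1 was lowest in 4 of its 4 probes.

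Markers of other organs were mostly silent, apart from those of endosperm starch. Over 5 lists (root, seed storage, anther and pollen, floral organ identity, KNOX meristem) 42 of 60 members were silent, against 25.6% of all loci, 14 were detected and 4 were detected on 1 or 2 arrays. The summed linear signal of the 60, in units of the 75th percentile, was 1.93, 2.21 and 2.18, against 6292, 5035 and 4676 for the 48 photosynthesis members. None of the 60 was among the 500 brightest loci. The endosperm starch list, also fixed as one the blade should lack, is outside these counts and sums and went the other way. Of its 8 genes 6 were detected and 0 were silent, with a median at the 54.5th percentile. Of seed storage genes 15 of 17 were silent, among them the glutelins GluA1, GluA3, GluB1 and GluB2. The glutelin GluA2 (Os10g0400200) was detected at -3.02, -2.92 and -2.81, and its 4 probes were detected on every array. GluC1 (Os02g0453600) was detected in replicate 2 only, at -7.79, -2.54 and -7.96, from 1 spot of 1 probe. That signal was 21.0-fold above the dimmest detected probe of replicate 3. Of anther genes 8 of 9 were silent, among them OsC6, UDT1, TDR and EAT1, and the cytochrome P450 CYP703A3 (Os08g0131100) was dim at -5.23 ± 0.45.

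Of the KNOX genes, which keep meristem cells undetermined, OSH15, OSH43, OSH71 and OSH6 were among 5 silent members of 6. OSH1 (Os03g0727000) was detected by both its probes at -3.74, -4.27 and -5.31, highest in replicate 1. Of 13 cell division genes 9 were silent, among them the mitotic cyclins CYCB2;2, CYCB2;1 and both CYCB1 loci. The exceptions were CDKB1;1 (Os01g0897000) at -0.80, -0.85 and -0.73, the replication clamp PCNA (Os02g0805200) at -0.42, -0.90 and -1.10 and the helicase subunit MCM2 (Os11g0484300) at -2.89, -3.77 and -4.02. Each of those 3 had 1 probe. The other helicase subunits MCM3, MCM5, MCM6 and MCM7 were silent. Of 13 floral organ genes 6 were silent and 5 detected. The brightest was MADS16 (Os06g0712700), a stamen factor, at -2.17, -2.17 and -1.73, and MADS2 (Os01g0883100) was lowest at -4.68 ± 0.25. MADS1 (Os03g0215400) spread most, at -1.70, -2.61 and -3.57, with replicate 1 highest in 3 of 3 probes.

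Root genes were less uniform. Of 15, 8 were silent, including RCc3 and RCc2, known from the root cortex, the silicon exporter Lsi2, and NAS1. DMAS1 (Os03g0237100), of iron chelator synthesis, was highest at -1.58 ± 0.22, and the vacuolar cadmium transporter HMA3 (Os07g0232900) lowest of the detected at -5.43 ± 0.19. NAS2 (Os03g0307200), nicotianamine synthase, spread most, at -4.36, -2.92 and -2.39. The sodium transporter HKT2;1 (Os06g0701700) was not well above background in replicate 1 and clear in the other two, at -7.26, -3.05 and -2.57. All 5 of its probes showed that split, and the highest signal was 16.3-fold above the dimmest detected probe of replicate 1. Of the stomatal lineage, SPCH1 and ICE1 were silent and ICE2 was detected, as was the guard cell anion channel SLAC1 (Os04g0574700) at 0.08 ± 0.20.

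The silent share also differed by the evidence class of the gene model. Of probes in the class that the array design names MRNA, 76.6% of 32314 were detected on all 3 arrays, against 53.4% of 6959 in the class named COMBINER_EST and 47.3% of 2620 in the class named COMBINER. By chromosome, taken from the locus name, the silent share ran from 20.9% on chromosome 3 (95% Wilson interval 19.6 to 22.3, counting error only) to 33.9% on chromosome 11 (31.7 to 36.2). The part of probe class in that difference was not tested.

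Most detected loci differed little between pools. The median SD of 19600 loci was 0.17 on the log2 scale (n = 3), 57.9% had an SD under 0.2, and 209 loci (1.07%) spanned 4-fold or more. The threshold fell between Os12g0629700 at 4.02-fold and Os06g0128700 at 3.97-fold. A 2-fold span was reached by 1672 loci (8.53%). After normexp background correction with an offset of 50, which draws dim signals together, 64 loci spanned 4-fold, and 63 of them were among the 209. Under it the genes described here that no longer did included MADS18, PIP2;4, PIP2;5, ABA8ox1, linalool synthase, EXPA4 and the terpene synthase Os08g0168000. The scanner software's own error for a spot was 0.14 on the same scale, and 23 probes with 10 spots each had a median SD of 0.06 between spots of an array and of 0.15 between pools. The fifth of detected loci with the lowest levels had a median SD of 0.25 and the fifth with the highest 0.15. The 8 reference genes were the steadiest list, with a median SD of 0.05. Among them UBQ5 (Os01g0328400), of ubiquitin, had 3.44, 3.45 and 3.44, the elongation factor eEF1A (Os03g0177400) 5.81, 5.90 and 5.92 and actin (Os03g0718100) 1.92, 1.98 and 2.02. The second GAPC locus (Os04g0486600) spread most of the 8, at 3.30, 3.67 and 3.73.

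Replicate 1 stood apart most often. Of the 209 loci, replicate 1 was farthest from the middle value in 136 by being lower and in 27 by being higher. Replicate 3 was so in 11 and 24, and replicate 2 in 0 and 11. Between pairs of pools the median absolute difference of detected loci was 0.16 for replicates 2 and 3, 0.19 for 1 and 2 and 0.27 for 1 and 3. Without replicate 1 the count of loci spanning 4-fold fell from 209 to 39, and without replicate 3 to 105. It fell least without replicate 2. The span of a probe over 2 pools cannot exceed that over 3, so part of each fall follows from leaving out a pool. Of the loci detected in 1 or 2 pools, 349 differed by at least 4-fold by a rule for undetected signals. It set each to the higher of its own level and that of the pool's dimmest detected probe. In 130 of the 349 the gene was detected in replicates 2 and 3 and not in replicate 1. The dimmest detected probe marks no detection limit, since silent loci had mean levels up to -5.47. The share of spots well above background, given above, was lowest in replicate 1. Tissue amount, RNA integrity values and harvest time of the pools are not given in the labels, and their part in the differences was not tested.

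**Figure D3:**
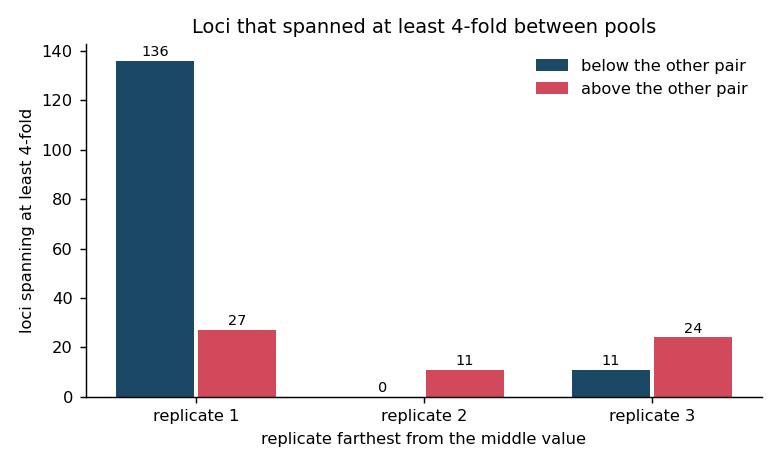
Number of loci (y axis) among the 209 that spanned at least 4-fold between the wild-type pools, by the replicate whose level lay farthest from the middle value (x axis) and whether it lay below or above. Replicate 1 lay below in 136 loci and above in 27.

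Genes of cellulose synthesis, and most of those for plasma membrane water channels, were lowest in replicate 1. All 6 detected cellulose synthases were lowest there (5 of 6 after normexp background correction), against 38.0% of detected loci. In bulk RNA, fewer cells of a type and less RNA per cell cannot be told apart. Of the primary wall genes, CESA1 (Os05g0176100) had -1.28, -0.41 and 0.06. CESA3 (Os07g0424400) had -1.17, -0.12 and 0.29, and CESA8 (Os07g0208500) had -1.95, -0.88 and -0.49. CESA4 (Os01g0750300), of secondary walls, was dimmest at -5.54, -4.10 and -4.61, and CESA2 and CESA9 were silent. The list's median deviation from each gene's own mean was -0.76, 0.22 and 0.54, against 0.01, -0.01 and -0.01 over all detected loci. Of 9 detected plasma membrane aquaporins, which conduct water, 7 were lowest in replicate 1 (6 of 9 with median scaling or normexp correction), 7 were highest in replicate 3, against 37.6% of detected loci, and 3 of the 9 spanned 4-fold. These were PIP1;3 (Os02g0823100) at 0.48, 2.40 and 3.02, PIP2;4 (Os07g0448100) at -4.82, -2.02 and -1.41 and PIP2;5 (Os07g0448200) at -4.56, -2.91 and -2.18. Each has 1 probe. The bright PIP1;1 (Os02g0666200) at 5.67, 5.69 and 5.97 and PIP2;7 (Os09g0541000) at 5.76, 5.56 and 5.63 differed little, and PIP2;3 and PIP2;8 were silent.

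The next genes were added after their values were seen, and their direction is a description. Expansins loosen growing walls. EXPA2 (Os01g0823100) had -6.61, -1.37 and -1.62, and replicate 2 was 37.4-fold above the dimmest detected probe of replicate 1. EXPB3 (Os10g0555900) had -6.50, -1.54 and -1.86. Its replicate 2 was 31.2-fold above its own undetected signal in replicate 1. No probe for either gene was well above background in replicate 1. EXPB2 (Os10g0555700) was instead highest in replicate 1, at -4.74, -6.00 and -6.78, with that pool highest in 4 of 4 probes and the only one in which any probe was detected. Of the other 6 expansins listed, EXPA4 (Os05g0477600) had -5.33, -3.22 and -3.46. EXPB4 (Os10g0556100) had -6.93, -3.89 and -4.86 in the 1 of its 6 probes that was detected in any pool, and EXPB6 (Os10g0555600) had -6.97, -4.81 and -5.58 and was lowest in replicate 1 in 5 of 5 probes. EXPA10 (Os04g0583500) had -0.51, -0.47 and -0.59, and EXPA5 and EXPB11 were silent. Of lipid transfer proteins, which carry wax and cutin lipids, Os12g0115000 had -1.31, 2.75 and 2.86, a 17.9-fold span, while its neighbour Os12g0115100 had 5.16, 5.96 and 6.09. Rice chromosomes 11 and 12 share a recent duplication, and signal shared with a copy was not tested. In leaf starch synthesis, starch synthase SSI (Os06g0160700) had -2.75, -0.12 and 0.91, a span of 12.6-fold shown by 4 of 4 probes. The granule-bound enzyme GBSSII (Os07g0412100) had 3.18, 4.06 and 4.31, and SSIIb (Os02g0744700) 3.43, 3.30 and 3.46. The endosperm isoform SSIIa (Os06g0229800) had -2.97, -7.99 and -7.47 in its brighter probe. Its replicate 1 was 15.6-fold above the dimmest detected probe of replicate 3. Both SSIIa probes were detected in replicate 1 alone, but the other SSIIa probe was dimmer there and spanned only 1.58 log2 units. Of the 8 endosperm starch genes 6 were detected. AGPS2 (Os08g0345800) was highest at 2.48 ± 0.18 and Waxy (Os06g0133000) lowest at -3.50, -2.30 and -2.36.

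Flavonoid genes differed step by step. Chalcone synthase (CHS, Os11g0530600), the first committed enzyme, had -1.67, 0.47 and 1.76, a 10.8-fold span, with replicate 1 lowest in 4 of 4 probes. CYP75B3 (Os10g0320100), a flavonoid 3'-hydroxylase named after its values were seen, had -2.25, 0.22 and 1.74. Chalcone isomerase (CHI, Os03g0819600), the enzyme after chalcone synthase, had 1.94, 2.01 and 2.45, and F3H and ANS were silent. C4H (Os05g0320700), an early enzyme of the phenylpropanoid route, was lowest of the detected at -3.25 ± 0.15.

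**Figure D4:**
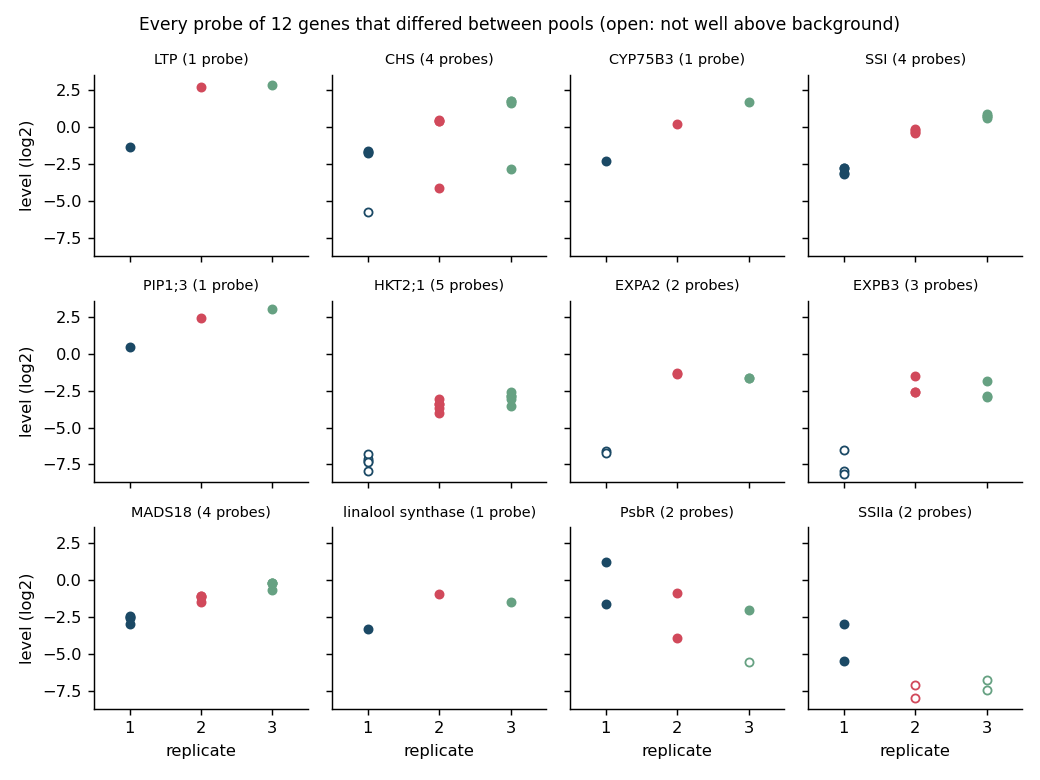
Level (y axis, log2 units from the array's 75th percentile) of every probe of 12 genes in wild-type replicates 1, 2 and 3 (x axis), with open circles where a probe was not well above background. Replicate 1 lies lowest for 10 of the genes, and highest for PsbR and SSIIa.

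Most photosynthesis genes were highest in replicate 1. In 45 of the 47 detected members of the 4 photosynthesis lists replicate 1 had the highest level, against 43.6% of all detected loci, and the median deviations were 0.24, -0.07 and -0.16. Among the 421 loci of the 500 brightest that belong to no list, added ones included, replicate 1 was highest in 185, with median deviations of 0.02, -0.05 and 0.04. After quantile normalization, which gives the brightest loci of each array the same values, the count was 36 of 47 (42 after normexp correction) and the deviations were 0.13, -0.01 and -0.12. The 2 exceptions before that step were CAB1R and PsbS1. A 2-fold span was reached by 4 of the 47, a share near the 8.53% of all detected loci. These were CAB2R, PsaH, PsbQ (Os07g0544800) at 6.48, 5.95 and 5.43, and PsbR.

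Defence genes followed other orders. Of 19 detected salicylate and pathogenesis-related genes 16 were lowest in replicate 3, against 39.3% of detected loci, and the median deviations were 0.31, 0.19 and -0.51. PR1b (Os01g0382000), a secreted marker of defence, had 3.55, 2.48 and 1.62, a 3.81-fold span and the largest of the list. The regulator WRKY45 (Os05g0322900) had 2.87, 2.34 and 1.60 and the chitinase Cht8 (Os10g0542900) a mean of 2.20 ± 0.69. PBZ1 (Os12g0555500), a PR10 protein, was brightest at 4.23, 4.65 and 3.91 and highest in replicate 2. WRKY28 (Os06g0649000) was lowest of the detected at -3.28 ± 0.45, and WRKY70 was silent. Of 14 detected genes of phytoalexin synthesis, which make antimicrobial diterpenoids and sakuranetin, 11 were highest in replicate 2 (10 of 14 with median scaling or quantile normalization), against 18.8% of detected loci. CYP76M7 (Os02g0569900), of the phytocassane cluster, was brightest at -0.59, 0.66 and 0.32. KSL10 (Os12g0491800) spread most, at -5.01, -3.73 and -4.78, DPF (Os01g0196300), a regulator of the momilactone and phytocassane genes, was dimmest at -4.96, -4.54 and -5.23, and KSL8 was silent.

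The linalool synthase locus Os02g0121700 was detected in all 3 pools at -3.32, -0.92 and -1.50, with a mean of -1.91 ± 1.25 (SD, n = 3) and rank 12127. Replicate 2 was 5.29-fold above replicate 1, and the mean lay below the median of detected loci, -1.09. It has 1 probe of 1 spot. Another terpene synthase locus, Os08g0168000, had -5.58, -3.49 and -4.52, also highest in replicate 2, and TPS19 (Os04g0340300) was detected in replicates 2 and 3 at -7.65, -4.26 and -4.18. Of the 3 detected terpene synthases listed, 2 were highest in replicate 2, and 1 was highest in replicate 1 and lowest in replicate 3. Of the plastid MEP pathway and carotenoid genes, which supply and use the same precursors, 19 of 19 were detected, against 67.9% of all loci. Their median SD of 0.15 was near the 0.17 of all detected loci. Only 1 gene, PSY3 (Os09g0555500) at -0.68, 0.32 and 0.62, was over 2-fold, against 8.53% of detected loci. HDR (Os03g0731900), the last MEP enzyme, was brightest at 5.49 ± 0.17 and CMK (Os01g0802100) dimmest at -1.15 ± 0.04.

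**Figure D5:**
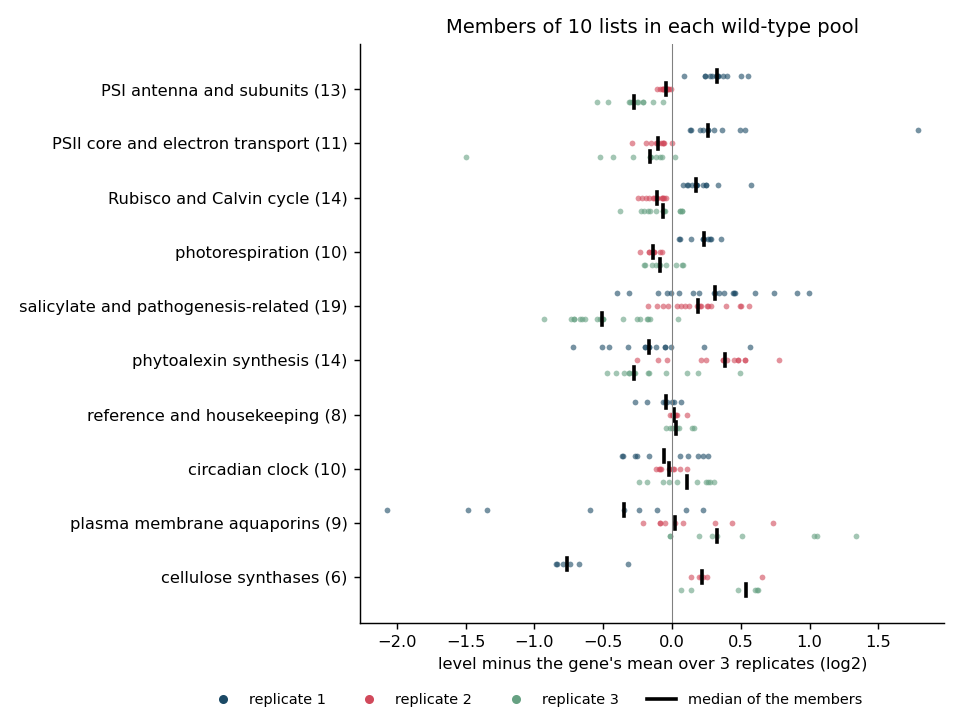
Level of each detected member of 10 lists in each wild-type replicate minus the mean of that gene over the 3 replicates (x axis, log2), 1 row of points per replicate, with the list median as a black bar and the number of members in brackets. Cellulose synthases lie at -0.76 in replicate 1, photosystem I genes at 0.33 in replicate 1 and -0.28 in replicate 3, and reference genes near 0 in each.

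Hormone genes spanned the whole range. Of 27 jasmonate genes 26 were detected, from the repressor JAZ7 (Os07g0615200) at 4.56 ± 0.06 to JAZ9 (Os03g0180800) at -4.11 ± 0.38, and JAZ8 (Os09g0439200) spread most, at -2.75, -1.40 and -1.36. Of abscisic acid genes NCED1 (Os02g0704000), of the rate-limiting cleavage step, was brightest at 4.03 ± 0.21, and NCED2 and NCED4 were silent. The catabolic hydroxylase ABA8ox1 (Os02g0703600) had -2.26, -0.08 and -0.77, a 4.54-fold span, and NCED5 (Os12g0617400) was lowest at -2.01 ± 0.36. Of 17 gibberellin genes 11 were detected. The F-box protein GID2 (Os02g0580300) was at 3.73 ± 0.07, the green revolution oxidase SD1 (Os01g0883800) at -1.42, -1.91 and -2.33, and GA3ox2 (Os01g0177400), which makes active gibberellin, was lowest of the detected at -4.94, -5.23 and -3.74. GA20ox3, GA3ox1, GA2ox1 and GA2ox4 were silent. Of 12 antioxidant enzymes, all detected, the cytosolic ascorbate peroxidase APX2 (Os07g0694700) was brightest at 6.07 ± 0.06 and FeSOD (Os06g0143000) dimmest at -0.31 ± 0.22. The plastid Cu/Zn superoxide dismutase (Os08g0561700), which removes superoxide formed by photosystem I, spread most, at 2.16, 1.31 and 0.72.

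The labelling primes from poly(A) tails, so a probe named for a microRNA can bind copies of its precursor transcript rather than the mature molecule. Of 169 microRNA names on the array 68 had a probe detected on all 3 arrays, against 67.9% of all loci. Probes of the 3' part were detected for 39 of 170, of the 5' part for 41 of 170 and of the mature sequence for 29 of 170. The 3' probe for miR168a, which targets the slicer ARGONAUTE1, was brightest at 2.71, 2.57 and 2.52. The 3' probes for miR528, miR398a and miR408, microRNAs of copper protein mRNAs, had means of 0.11, -0.21 and -0.34. Others of that group were dimmer, with 3' probe means of -3.38 for miR398b and -5.41 for miR397b. No probe for miR397a was well above background on any array.

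The loci with the widest spans were largely without a name. The largest SD was that of Os10g0409400, at -2.89, -1.89 and 2.07 (SD 2.63), which stood out by replicate 3, followed by Os06g0317200 at -5.48, -0.76 and -1.33 (SD 2.58), which stood out by replicate 1. The files used here pair neither with a gene name.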

How the data were processed

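RNA from 3 pools was extracted with Trizol, and 100 ng of each was labelled with Cy3 and hybridised for 17 h at 65 °C, per the labels' protocols and the series' design text. Agilent Feature Extraction 10.10.1.1 produced the deposited processed intensity of each spot, which the file headers describe as background-subtracted and detrended. Its 75th percentile differed between the arrays, so it was scaled here. In the value table that the authors deposited, each array held this processed intensity times 1 constant, with array medians of 396, 427 and 412. Its direction and scale are thus those of the intensity and no source used here says how the constant was set.

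Control spots were left out, which left 43734 spots per array, and so were 39, 49 and 62 outlier spots. Levels are log2 of the processed intensity minus the log2 of the 75th percentile of the array (720, 883 and 959). Spots of a probe were averaged, giving 42477 probes. The locus came from the systematic name or the start of the probe name, and 20674 of 28848 loci had 1 probe. The array files hold no gene descriptions, so gene names are general knowledge of the rice locus numbers, and 0 loci matched the RefSeq table given. By rule the top 10 and the 10 most variable loci were to be named, but unnamed IDs were limited to 2 of each. Lists held 32 sets of 390 loci, 384 on the array, and 23 loci were added after their values were seen. The members and lists were chosen with earlier results of these data known. A locus was called variable at a range of 2 log2 units, which is 4-fold. Folds over an undetected signal use the higher of its own level and the lowest detected level of that array. They are not lower bounds, since silent loci had mean levels up to -5.47. No test was possible with 1 group. The mean signal column was absent, so normexp (limma 3.58.1, R 4.3.3) used median spot and background signals. Python 3.11.15 with pandas 2.3.3 was used otherwise, and the variable call was checked on simulated data.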

Additional observations from a re-analysis of the deposited data

Results flagged for a closer look

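Of 59 probes that the array design names as controls but that are scanned as ordinary features, 6 were well above background on all 3 arrays. Of the 24 probes of the genome type, 5 had mean levels of -2.25 (POsControl0001), -4.2 (POsControl0005), -5.23 (POsControl0011), -4.49 (POsControl0016) and -2.17 (POsControl0021). Of the 12 of the random type, 1 had -5.53 (POsControl0027). None of the 12 artificial type and none of the 11 coded as mRNA of another species was above background on all 3. The medians of the 4 types lay between -7.93 and -7.38, beside -7.69 for silent loci. A detected level of about -5.53 was thus also seen for a random sequence. These probes belong to no comparison of the report.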

How the results depend on the processing

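The count of 209 loci spanning 4-fold was 64 after normexp correction, 517 with the looser detection flag, 49 at 8-fold, 900 with no detection filter and, at 2-fold, a threshold chosen after seeing the data, 1672. Leaving out 1 replicate gave 39 to 180. It was 201 with median scaling, 199 after quantile normalization, 210 from the authors' table, 211 with outlier spots kept and 215 with the median of a locus's probes. Silent loci numbered 2982 with the looser flag. The median SD ranged from 0.111 to 0.191 when 1 replicate was left out. The cause of these changes was not tested. Recomputed list medians moved by less than the replicate spread in 311 cases and by more in 49. Recomputed ranges of named genes stayed on their side of the 4-fold threshold in 103 cases and fell under it in 27. No paired analysis was possible because only 1 group was analysed. Probes near the lowest detected level and the number of pools limit what can be seen.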
